A study of Mus musculus with 8 samples.

Results

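miR-124 and miR-9 were measured in hippocampi of the BTBR and B6 strains through the mature miRNAs of both arms of each hairpin. These are mmu-miR-124-3p, mmu-miR-124-5p, mmu-miR-9-5p and mmu-miR-9-3p, written here without the mouse prefix. They were chosen by name, and all 4 were present among the 422 miRNAs of the deposited count table. Small RNA was sequenced from 4 BTBR mice (BTBR T+ Itpr3tf/J, inbred and used to model idiopathic autism) and 4 B6 mice (C57BL/6J, the control strain). All were adult males of 12 weeks with no treatment given, bred in one vivarium, with 1 library per mouse from the punched hippocampus. The strains differ throughout the genome, so that a difference between them cannot be assigned to 1 allele.

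miR-124 is the miRNA most closely tied to neuronal identity. It is switched on as progenitors become neurons and represses transcripts of non-neuronal cells, among them the splicing repressor Ptbp1 and components of the REST pathway. miR-9 is expressed in neural progenitors and neurons and acts on the timing of neurogenesis, and its arms have been described as acting on REST and on its cofactor CoREST. In each hairpin one strand is loaded preferentially into Argonaute as the guide, while the other, the passenger strand, is mostly degraded. The guide is the 3p arm in miR-124 and the 5p arm in miR-9.

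The mature sequences of miR-9 from RefSeq (GRCm38.p6) are shown because the seed, bases 2 to 8 from the 5′ end and here in capitals, sets which transcripts each arm can pair with.
miR-9-5p: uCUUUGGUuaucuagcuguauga
miR-9-3p: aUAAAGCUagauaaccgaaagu
The arms of miR-9 have different seeds, and none of the other mature mouse miRNAs in the RefSeq table has the seed of either. In the hairpin the arms face each other, and the longest run of uninterrupted Watson-Crick pairs between them covers 12 bases, from base 6 to base 17 of the 5p arm and from base 5 to base 16 of the 3p arm. Capitals mark that run below.
miR-9-5p: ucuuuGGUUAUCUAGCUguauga
miR-9-3p: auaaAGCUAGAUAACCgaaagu

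Each miRNA is made from 3 genes. The hairpins of miR-9 lie on the plus strand of GRCm38. Mir9-1 is on chromosome 3 from 88215598 to 88215686, in the lincRNA Gm3764 and outside its exons. Mir9-2 lies on chromosome 13 from 83738814 to 83738885 within an exon of the lincRNA C130071C03Rik, and Mir9-3 on chromosome 7 from 79505264 to 79505353 in Mir9-3hg, outside its exons. Both mature sequences are the same in the 3 hairpins, so the counts do not show which gene a read came from. The hairpins differ in the loop between the arms, which has 16 bases in Mir9-1 and Mir9-3 and 14 in Mir9-2.
Mir9-1 loop: gugguguggagucuuc
Mir9-2 loop: guguauuggucuuc
Mir9-3 loop: gugccacagagccguc
For miR-124, Mir124a-1 lies on chromosome 14 from 64590657 to 64590741 within an exon of the lincRNA Mir124a-1hg. Mir124a-2 is on chromosome 3 from 17795662 to 17795770, partly in an exon of Mir124-2hg. Mir124a-3 lies on chromosome 2 from 180894040 to 180894107 and its end overlaps the first exon of the lincRNA Gm27032.

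The counts summed to 5078301 to 5792967 per library in B6 and 2247482 to 7904990 in BTBR mice, with BTBR replicate 2 the shallowest. In these sums 8 miRNAs, in 4 groups, repeat each other's counts in all libraries, which adds 0.0329% to 0.162% of a total a second time. None of the 4 members is among them, but miR-486a-5p of the red blood cell list is. Levels are given as CPM, counts scaled to a common library total, after TMM normalization, which scales each library by the miRNAs that change least. A small RNA read covers a whole miRNA, so CPM was not divided by length. B6 replicate 1 stood apart in miRNAs known from the choroid plexus, with a summed level of 39305 CPM over 7 such miRNAs against 5125 to 16129 CPM in the other 7 libraries. In bulk tissue fewer cells of a type and less RNA per cell cannot be told apart.

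The guide arm of miR-9, miR-9-5p, was by reads one of the most abundant miRNAs in both strains and did not pass the test between them. It took between 3.46% and 4.96% of the counts of a library and ranked between 5 and 7 among the 422 miRNAs. In B6 replicates 1 to 4 its level was 39973, 31206, 47977 and 56859 CPM. In BTBR replicates 1 to 4 it was 33314, 40130.5, 41398 and 42989.5 CPM. The B6 mice held both the lowest and the highest value, and all BTBR mice lay between them. Its mean was 44004 ± 10970.5 CPM (SD, n = 4) for B6 and 39458 ± 4260 CPM for BTBR mice.
The fold change was 0.897 (BTBR over B6), with a 95% interval from 0.660 to 1.22 and an adjusted p of 0.800 (edgeR quasi-likelihood test, adjusted by the method of Benjamini and Hochberg across 422 miRNAs). On the log2 scale it was −0.16 with a standard error of 0.20. In the same fit, 7 of 422 miRNAs (1.66%) passed the study's threshold of 0.1, 5 higher and 2 lower in BTBR mice. None of the 4 miRNAs of miR-124 and miR-9 was among them. The count is that of the fit made here and differs from the one the study reported. With library size as the only scaling the calls were 4 higher and 0 lower, and with the upper quartile 6 and 1. At an unadjusted edgeR p below 0.05 there were 46 miRNAs (10.9%), again with none of the 4, and of the 4 none was called by DESeq2, which called 21 of the 372 miRNAs it gave an adjusted p (5.65%), or by limma-voom, which called 6 of 422 (1.42%). Without the TMM scaling the fold change of miR-9-5p changed sign, to 0.02 on the log2 scale, while the median of all miRNAs moved from 0.02 to 0.15. Relative to that median it was −0.17 with TMM and −0.12 without.

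The guide arm of miR-124, miR-124-3p, was by reads far below miR-9-5p in each library and did not pass the test between the strains. Its level was 1129, 1707, 1617 and 1427 CPM in B6 replicates 1 to 4. In BTBR replicates 1 to 4 it was 1526, 932, 2195 and 1497 CPM. Here the lowest and the highest of the 8 libraries were both BTBR, replicates 2 and 3, and the B6 mice lay between them. Its mean was 1470.1 ± 256 CPM (SD, n = 4) for B6 and 1538 ± 516 CPM for BTBR mice, a coefficient of variation of 17.4% and 33.6%. The fold change was 1.05, with a 95% interval from 0.711 to 1.54 and an adjusted p of 0.949 from the same edgeR test. The log2 fold change of 0.06 (standard error 0.25) turned to −0.10 without B6 replicate 1 and to −0.16 without BTBR replicate 3. BTBR replicate 2, the library with the least miR-124-3p, also had the fewest reads and the highest summed level of immune cell and microglial miRNAs, at 1746 CPM against 892 to 1149 CPM in the other libraries. The immune list did not move as one. Over the 8 libraries, which these miRNAs share, r with miR-124-3p was −0.709 for miR-146a-5p, its most abundant miRNA, and 0.780 for miR-142a-5p, with the other 3 between −0.583 and −0.42. Red blood cell miRNAs summed to 1371 CPM in BTBR replicate 2 and to 1364 CPM in BTBR replicate 3, the libraries with the least and the most miR-124-3p, and to between 303 and 1082 CPM in the others. The part of these in the level of miR-124-3p was not tested.

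The passenger arms were measured at lower levels and with fewer reads. miR-124-5p had 69.5, 61.1, 91.2 and 81.8 CPM in B6 replicates 1 to 4 and 106, 103, 86.7 and 64.8 CPM in BTBR replicates 1 to 4. The highest values, BTBR replicates 1 and 2, were above every B6 mouse, but BTBR replicate 4 was below all B6 mice other than replicate 2. Its mean was 75.9 ± 13.3 CPM (SD, n = 4) for B6 and 90.1 ± 18.9 CPM for BTBR mice. miR-124-5p had the largest fold change of the 4, 1.19, with a 95% interval from 0.826 to 1.70 (edgeR, adjusted p = 0.731).

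miR-9-3p had 12.9, 16.7, 14.1 and 19.3 CPM in B6 replicates 1 to 4 and 18.7, 16.6, 14.03 and 13.4 CPM in BTBR replicates 1 to 4. Its mean was 15.8 ± 2.87 CPM (SD, n = 4) for B6 and 15.7 ± 2.46 CPM for BTBR mice, and the B6 mice spanned the whole range of the BTBR mice. The fold change was 0.993, with a 95% interval from 0.649 to 1.52 (edgeR, adjusted p = 0.996). The B6 libraries held 67 to 100 reads of it, for which counting alone gives a coefficient of variation of at most 12.2%, below the 18.2% seen among the B6 mice. The BTBR libraries held 37 to 111 reads, for which counting gives 16.4% to 9.49%, a range that includes the 15.7% seen among the BTBR mice. For miR-9-5p, with at least 89394 reads, counting gives at most 0.334%.

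**Figure D1:**
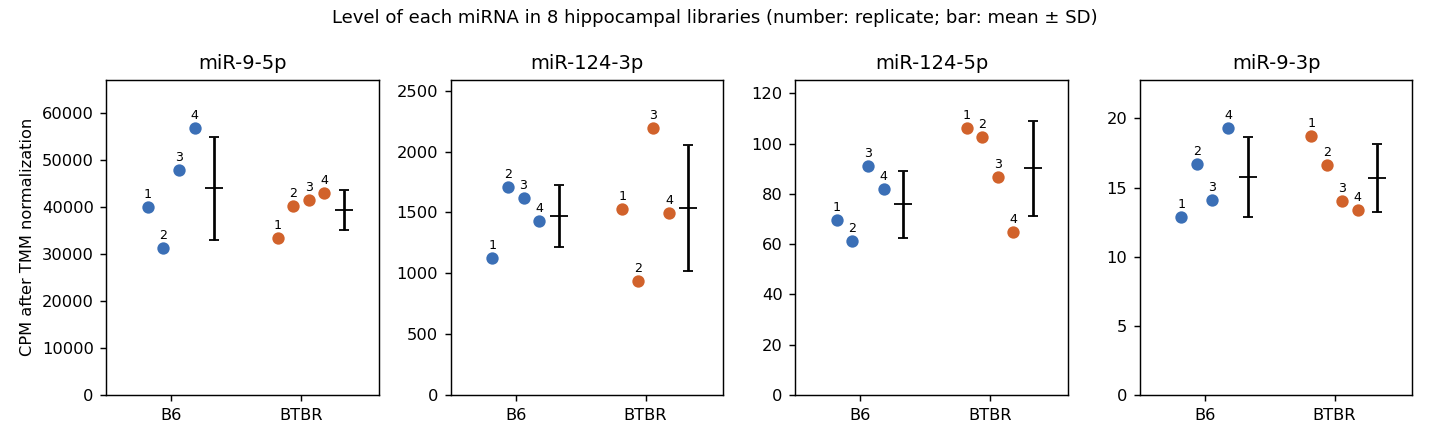
Level of each miRNA (vertical axes, CPM after TMM normalization, each starting at 0) in the 4 B6 and 4 BTBR libraries, with 1 point per mouse labelled by its replicate number and a bar for the mean ± SD. The strains overlap in all 4 miRNAs, and miR-124-3p has its lowest and highest level (932 and 2195 CPM) in BTBR mice.

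As a check on single values, log2(CPM + 0.5) was permuted over all 70 ways of dividing the mice, two-sided and exact, where no p can fall below 0.0286. This exact permutation test gave p = 0.571 for miR-9-5p, p = 0.971 for miR-124-3p, p = 0.286 for miR-124-5p and p = 0.943 for miR-9-3p. The strains overlapped in each of the 4 miRNAs, whereas they did not in 28 of all 422 (6.64%). Within strains the SD of the log2 level was 0.40 for miR-124-3p and between 0.24 and 0.29 for the other 3, against a median of 0.44 over all miRNAs. Over the 268 miRNAs with a mean count of at least 100, which leave out miR-9-3p, the median was 0.35, with miR-124-3p above it and miR-124-5p and miR-9-5p below it. The 95% intervals of the fold changes reached down to 0.649 (miR-9-3p) and up to 1.70 (miR-124-5p), so that these tests do not show that the strains are alike.

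**Figure D2:**
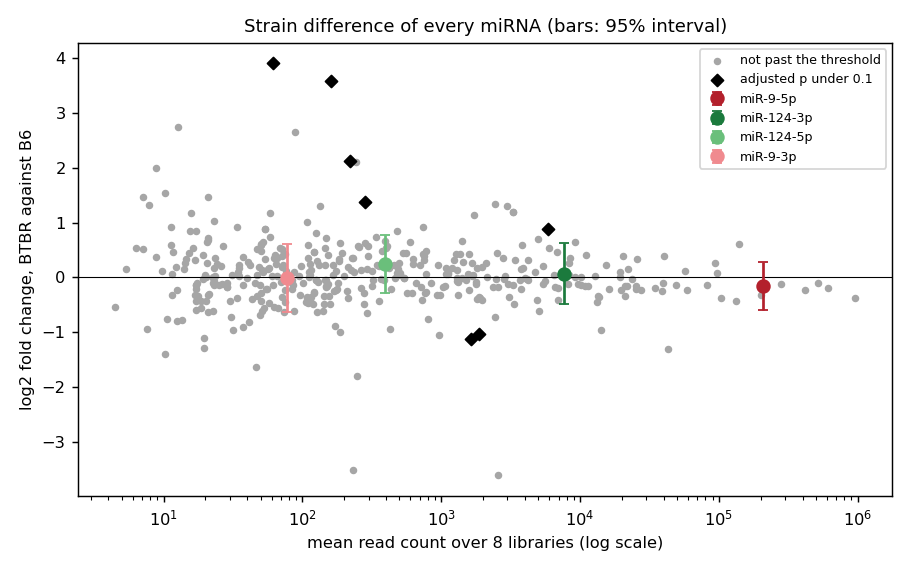
Log2 fold change of BTBR against B6 mice (vertical axis) against the mean read count over the 8 libraries (horizontal axis, log scale) for 422 miRNAs, with diamonds for the 7 past an adjusted p of 0.1. The 4 coloured points with their 95% intervals, miR-9-5p, miR-124-3p, miR-124-5p and miR-9-3p, all have intervals that span 0.

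The 4 miRNAs kept 1 order in all 8 libraries, miR-9-5p above miR-124-3p, then miR-124-5p, then miR-9-3p, with no overlap between neighbours in that order. The lowest level of miR-9-5p, 31206 CPM, was above the highest of miR-124-3p, 2195 CPM. miR-124-5p at its lowest, 61.1 CPM, was above miR-9-3p at its highest, 19.3 CPM. By their mean level over the libraries they ranked 7, 54, 173 and 281 of 422. None of the 8 neighbours in that wider order, 1 above and 1 below each member, lay on 1 side of it in all 8 libraries. let-7b-5p, of the let-7 family that marks differentiated cells, lay just above miR-9-5p with a mean of 41888 CPM, and was exceeded by it in 4 of 8 libraries. miR-126a-3p, an endothelial miRNA, lay just above miR-124-3p with a mean of 1595 CPM, and was exceeded by it in 2 of 8. let-7g-5p, just below miR-9-5p with a mean of 30940 CPM, was lower than it in 7 of 8 libraries. miR-183-5p, a miRNA of sensory cells just below miR-9-3p, was lower than it in 6 of 8 and was itself among the miRNAs called between the strains, with a log2 fold change of 3.90 (edgeR, adjusted p = 0.0569). The other 4 neighbours were exceeded in 4 to 6 of 8 libraries.

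The arm ratio, the number of 5p reads over 3p reads within 1 library, needs no normalization. It put the guide strands far apart from their partners in both hairpins. miR-124-3p had 16.2, 28.0, 17.7 and 17.5 reads for each read of miR-124-5p in B6 replicates 1 to 4. In BTBR replicates 1 to 4 it had 14.4, 9.07, 25.3 and 23.1 reads. The BTBR mice thus spanned a wider range than the B6 mice, and BTBR replicate 2 was the least one-sided. The 5p arm made up 9.93% of the miR-124 reads in that library (95% Wilson interval 8.78% to 11.2%) and 3.45% in B6 replicate 2 (3.12% to 3.82%), the library at the other end. These intervals cover counting error only, since the reads carry no molecular identifiers, and the difference between those mice was larger than it.

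miR-9-5p had 3109, 1865, 3396 and 2942 reads for each read of miR-9-3p in B6 replicates 1 to 4. It had 1781, 2416, 2951.5 and 3219 reads in BTBR replicates 1 to 4. The lowest ratios were those of BTBR replicate 1 and B6 replicate 2, so that 1 mouse of each strain stood below the others. The 3p arm made up between 0.0294% (95% Wilson interval 0.0233% to 0.0372%) and 0.0561% (0.0457% to 0.0689%) of the miR-9 reads. Ligation preferences can change levels between arms, so the arm ratios are ratios of reads. By reads, miR-9 was among the most one-sided hairpins measured. Of the 99 hairpins with both arms in the table under 1 name, it ranked 6 by the size of the log2 ratio, at 11.36, while miR-124 ranked 47 at −4.16, and the median size was 3.65.

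The log2 ratio of miR-124-5p to miR-124-3p was −4.27 ± 0.36 (SD, n = 4) in B6 and −4.05 ± 0.68 in BTBR mice. The difference of 0.22 had a standard error of 0.39 (two-sided exact permutation test, p = 0.657). Without BTBR replicate 2 it turned to −0.07. For miR-9-5p to miR-9-3p the log2 ratio was 11.42 ± 0.38 in B6 and 11.29 ± 0.38 in BTBR mice, a difference of −0.13 with a standard error of 0.27 (exact permutation test, p = 0.571), which turned to 0.04 without BTBR replicate 1. The strains did not overlap in the arm ratio of 2 of the 99 hairpins (2.02%), and neither miR-124 nor miR-9 was one of them.

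**Figure D3:**
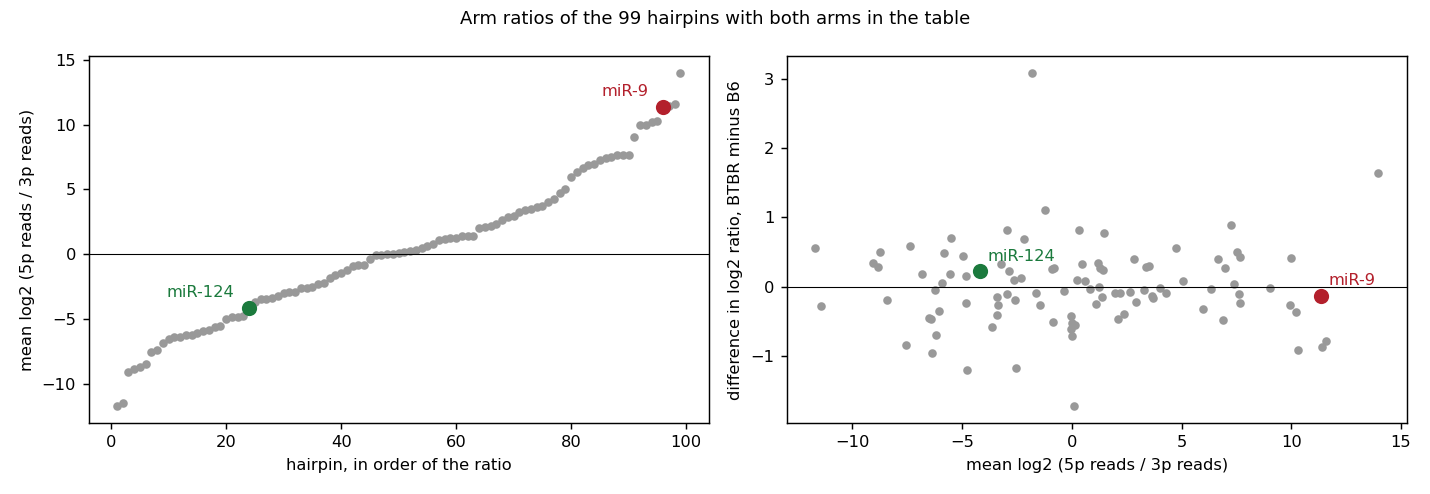
Left, the mean log2 ratio of 5p to 3p reads (vertical axis) of the 99 hairpins with both arms in the table, in order of the ratio, with miR-9 at 11.36 and miR-124 at −4.16. Right, the difference in that ratio between BTBR and B6 mice (vertical axis) against the ratio itself, where miR-124 at 0.22 and miR-9 at −0.13 lie near 0.

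Ratios between the hairpins were compared in the same way. miR-9-5p had 35.4, 18.3, 29.7 and 39.8 reads for each read of miR-124-3p in B6 replicates 1 to 4, and 21.8, 43.0, 18.9 and 28.7 in BTBR replicates 1 to 4. The guide strands therefore moved against each other by up to 2.35-fold from mouse to mouse, with mice of both strains at either end. Their log2 ratio was 4.89 ± 0.49 (SD, n = 4) in B6 and 4.74 ± 0.52 in BTBR mice, a difference of −0.15 with a standard error of 0.36 (exact permutation test, p = 0.714), and 0.02 without BTBR replicate 3.
The passenger strands were closer to each other. miR-124-5p had 5.40, 3.65, 6.46 and 4.23 reads for each read of miR-9-3p in B6 replicates 1 to 4, and 5.68, 6.19, 6.18 and 4.86 in BTBR replicates 1 to 4. The log2 ratio of miR-9-3p to miR-124-5p was −2.26 ± 0.36 in B6 and −2.50 ± 0.16 in BTBR mice, a difference of −0.24 with a standard error of 0.20 (exact permutation test, p = 0.257). Over the 4 ratios compared, each p was 0.714 after Benjamini-Hochberg adjustment of the exact permutation tests.

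**Figure D4:**
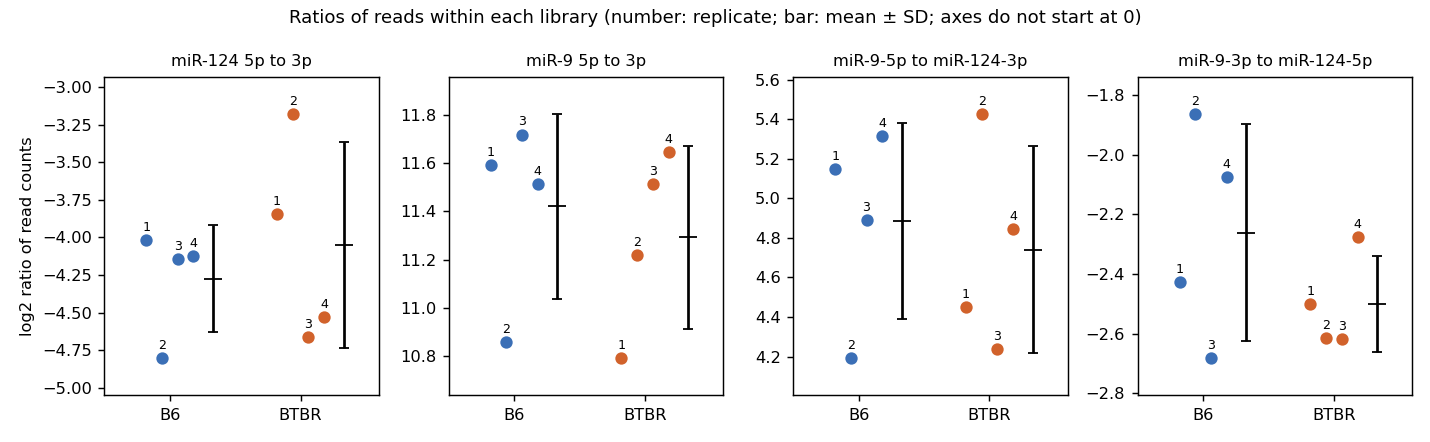
Log2 ratio of read counts (vertical axes, which do not start at 0) of 5p to 3p reads for miR-124 and miR-9, of miR-9-5p to miR-124-3p, and of miR-9-3p to miR-124-5p, with 1 point per mouse labelled by replicate number and a bar for the mean ± SD. The strains overlap in each ratio, and BTBR replicate 2 has the highest ratio of miR-124-5p to miR-124-3p, at −3.18.

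Since arms of 1 hairpin come from the same precursor, their levels were compared over the libraries. No covariation was detected in either hairpin. Over the 8 mice the log2 levels of miR-124-3p and miR-124-5p had a Pearson r of −0.17 (exact permutation test over all pairings, p = 0.677) and a Spearman rho of −0.14 (exact permutation test, p = 0.752). For miR-9-5p and miR-9-3p, r was −0.03 (exact permutation test, p = 0.945) and rho 0.00 (exact permutation test, p = 1.0). In BTBR replicate 2, for instance, miR-124-3p was at its lowest of 932 CPM and miR-124-5p at 103 CPM, near its highest. In B6 replicate 2 miR-124-3p was at 1707 CPM and miR-124-5p at its lowest of 61.1 CPM. Without the 2 libraries farthest from the median of miR-124-3p, BTBR replicates 2 and 3, its r with miR-124-5p was 0.10. Without those farthest for miR-9-5p, B6 replicates 2 and 4, its r with miR-9-3p was −0.70 (exact permutation test, p = 0.169). As a description over the 99 hairpins, whose arms share the 8 libraries and their scaling, the median r between arms was 0.198. It was above 0 in 65 of them and below 0 in both hairpins here, with miR-124 ranked 71 and miR-9 ranked 67. That sign depended on single mice. For miR-124 r was 0.22 without BTBR replicate 2, and for miR-9 it was 0.23 without BTBR replicate 1.

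Between the hairpins, the guide strands miR-124-3p and miR-9-5p had an r of −0.06 and a rho of −0.12 (exact permutation tests, p = 0.885 and p = 0.793). miR-124-3p and miR-9-3p had an r of −0.08 and a rho of 0.05 (exact permutation tests, p = 0.858 and p = 0.935). For miR-124-5p, r was 0.11 with miR-9-5p and 0.41 with miR-9-3p, and rho was 0.07 and 0.31 (exact permutation tests of r, p = 0.784 and p = 0.302, and of rho, p = 0.882 and p = 0.462). After Benjamini-Hochberg adjustment over the 6 pairs each exact permutation p was 0.945 for r and 1.0 for rho. Without the 2 libraries farthest from the median of the first member named, r was −0.22 for miR-124-3p with miR-9-5p and 0.39 for miR-124-3p with miR-9-3p. It was −0.40 for miR-124-5p with miR-9-5p and 0.55 for miR-124-5p with miR-9-3p. The libraries left out were BTBR replicates 2 and 3 for miR-124-3p, and B6 replicate 2 and BTBR replicate 4 for miR-124-5p. With each strain centred on its own mean, r lay between −0.21 and 0.45 over the 6 pairs. Correlations over the 4 mice of a single strain were not computed.

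The miRNAs whose course over the 8 libraries was most like each member were listed by Pearson r of the log2 level, among the other miRNAs with a mean count of at least 100, and are given as a description. They share libraries and scaling with the members and were picked as the highest of 267 or 268 values. For miR-124-3p they were miR-29a-3p, a miRNA that increases as neurons mature, with an r of 0.955, miR-543-3p (0.869) and miR-330-5p (0.849). Like miR-124-3p, miR-29a-3p was lowest in BTBR replicate 2, at 1192 CPM, and highest in BTBR replicate 3, at 2026 CPM. For miR-9-5p they were miR-221-3p with an r of 0.918, miR-218-5p, which is enriched in neurons (0.865), and miR-98-5p, of the let-7 family (0.831). miR-221-3p was lowest in B6 replicate 2, at 2042 CPM, and highest in B6 replicate 4, at 4131 CPM, as was miR-9-5p. The passenger strand miR-124-5p was most like both arms of miR-139, miR-139-3p (0.883) and miR-139-5p (0.837), and miR-155-5p (0.858), a miRNA of activated immune cells. For miR-9-3p the highest values were lower, 0.635 for let-7b-3p, 0.621 for miR-6944-3p and 0.594 for miR-7a-1-3p. None of these 12 miRNAs passed the threshold between the strains, with adjusted p between 0.617 and 0.949 (edgeR).

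**Figure D5:**
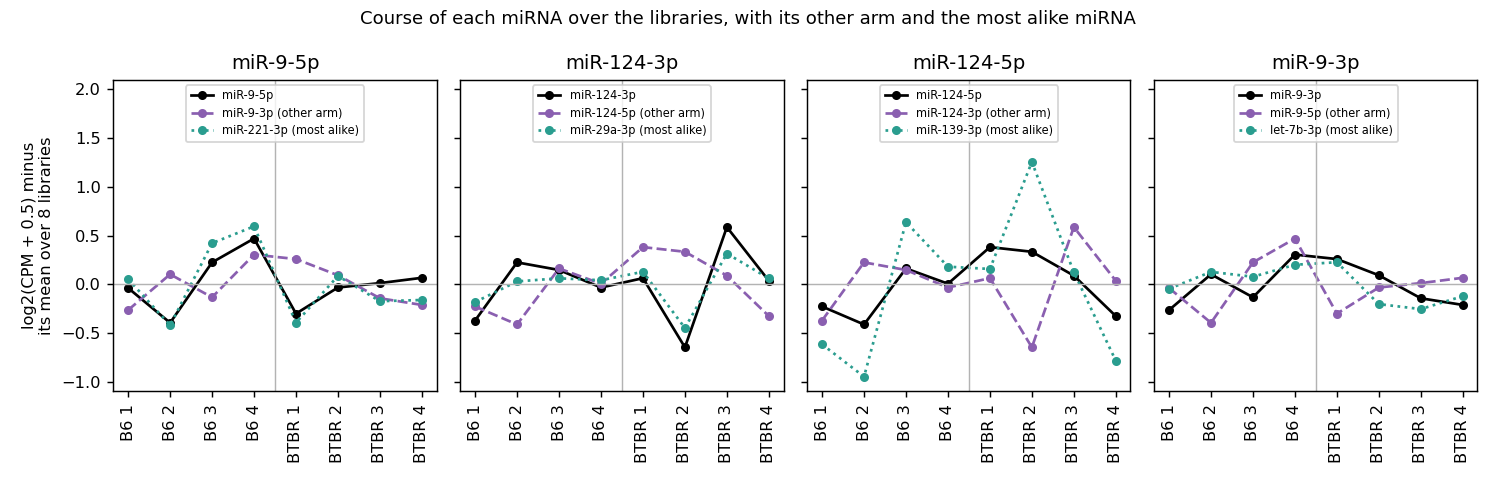
Log2(CPM + 0.5) minus its mean over the 8 libraries (vertical axis) for each member, its other arm and the miRNA most like it, with 1 point per library. Lines only join the points of 1 miRNA, since replicates have no order, and miR-124-3p and miR-29a-3p are both lowest in BTBR replicate 2 while miR-124-5p is not.

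Of the 367 measured miRNAs with a mature sequence in the RefSeq table, 1 other lies within 50000 bases of 1 of the 6 hairpins. It is miR-3093-3p, which is 351 bases from Mir9-1, had 6 to 42 reads per library, and had an r of −0.244 with miR-9-5p and 0.472 with miR-9-3p, which is given as a description of sparse counts.

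Other miRNAs enriched in neurons were taken as a list beside miR-124 and miR-9. All 11 were measured, and 0 passed the threshold of 0.1 with edgeR, DESeq2 or limma-voom or an unadjusted edgeR p of 0.05. Over all miRNAs tested these rules called 1.66%, 5.65%, 1.42% and 10.9%, shares at which few or none of 11 would be called. The list had 7 above and 4 below 0 and a median log2 fold change of 0.21, where the median of all 422 miRNAs was 0.02. miR-137-3p, a regulator of synaptic vesicle release, had the highest value, 0.43 (standard error 0.28), and miR-138-5p, which limits the growth of dendritic spines, the lowest, −0.62 (standard error 0.35). miR-132-3p, which is induced by neuronal activity, had 0.39 (standard error 0.22), and miR-128-3p 0.26 (standard error 0.20). Summed, the 11 reached 30482 to 39668 CPM in B6 and 33299 to 48325 CPM in BTBR mice. Over the libraries r with miR-124-3p ranged from −0.797 for miR-7a-5p to 0.599 for miR-132-3p, and r with miR-9-5p from −0.508 for miR-129-2-3p to 0.865 for miR-218-5p.

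Lists for other cell types gave 1 call, miR-451a of red blood cells, which was higher in BTBR mice by 1.38 on the log2 scale (edgeR, adjusted p = 0.0339). DESeq2 called 3 of 4 red blood cell and 2 of 7 choroid plexus miRNAs, and limma-voom 1 and 0, where DESeq2 and limma-voom called shares of all miRNAs of 5.65% and 1.42%. At an unadjusted edgeR p below 0.05, which 10.9% of all miRNAs reached, there were 3 and 4 of these, and 0 in the other lists, in which neither tool made a call. The lists were chosen here with earlier results of these data known. The study reported some miRNAs of the choroid plexus and red blood cell lists as differing in these libraries, so their direction is not independent evidence. The medians were 1.25 over 4 red blood cell miRNAs, −1.30 over 7 choroid plexus miRNAs, −0.34 over 3 oligodendrocyte miRNAs, −0.15 over 4 endothelial and mural miRNAs, and 0.15 over 5 of 6 immune and microglial miRNAs. Summed choroid plexus miRNAs were at 39305, 16129, 6328 and 5164 CPM in B6 replicates 1 to 4 and at 5125 to 9393 CPM in BTBR mice, so that B6 replicates 1 and 2 alone lay above the BTBR mice. Red blood cell miRNAs summed to 303 to 853 CPM in B6 and 531 to 1371 CPM in BTBR mice. Summed oligodendrocyte miRNAs were at 2238 to 4256 CPM in B6 and 2289 to 2922 CPM in BTBR mice, and endothelial and mural ones at 8863 to 13365 CPM and 6831 to 10686 CPM. Their part in the levels of miR-124 and miR-9 was not tested.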

How the data were processed

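Small RNA libraries (Illumina TruSeq) from 4 BTBR and 4 B6 hippocampi were checked with FastQC 0.11.2, and per the study's methods the authors mapped reads with sRNAbench, which runs Bowtie, to GRCm38 and assigned those fully within miRBase version 21 coordinates. The authors deposited whole-number counts of reads per miRNA, not normalized. Reads extending past those coordinates were not counted, and sequence preferences of ligation can change levels between miRNAs, so levels of different miRNAs are levels of reads. Every miRNA had at least 1 read in each library. Within strains, libraries differed beyond sampling noise (chi-square per degree of freedom 81.7 to 786), and each was kept as 1 replicate.

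Counts were compared with edgeR 4.0.16 in R 4.3.3 (TMM, quasi-likelihood test, no covariate or filter, Benjamini-Hochberg over 422 miRNAs, threshold 0.1, steps tested on simulated data). Standard errors came from the fold change and its F statistic. Single values, ratios (pseudocount 0.5) and correlations used exact permutation tests in Python 3.11.15, with scipy 1.17.1 for intervals. Alternatives used DESeq2 1.42.0, limma 3.58.1, other scalings, a filter on low counts (edgeR's filterByExpr, 410 miRNAs kept), the replicate number as a block, and each mouse left out. Named miRNAs were the members, for each the 3 most alike, neighbours in level, and the lists of neuronal, oligodendrocyte, immune, endothelial and mural, choroid plexus and red blood cell miRNAs. miR-3093-3p falls outside that rule and was named for its position. The members and lists were chosen with earlier results of these data known. Of 422 miRNAs, 367 matched a mature sequence in RefSeq, among them 2 of the 4 members, both arms of miR-9, and host genes are from GENCODE on GRCm38. miR-223-3p of the immune list was not analysed here.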

Additional observations from a re-analysis of the deposited data

Results flagged for a closer look

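In the log2 ratio of miR-124-5p to miR-124-3p, B6 replicate 2 lay at −4.80, far below the other B6 mice at −4.15 to −4.02, a gap of 0.839 of the group's range, above Dixon's 95% critical value. Of the 16 groups of 4 values tested, 1 passed it, and chance alone passes about 5% of groups. The same library had the highest miR-124-3p, 1707 CPM, and the lowest miR-124-5p, 61.1 CPM, of the B6 mice.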

How the results depend on the processing

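The log2 fold changes of the 4 miRNAs stayed short of the threshold under all 15 alternatives, with adjusted p from 0.495 (miR-9-5p) upwards, and miR-124-5p stayed above 0. With library size only the value was 0.025 for miR-9-5p and 0.13 for miR-9-3p, and with the upper quartile 0.030 for miR-9-3p, each a change of sign. Leaving out 1 mouse gave −0.16 to 0.22 for miR-124-3p, 0.13 to 0.31 for miR-124-5p, −0.28 to −0.05 for miR-9-5p and −0.17 to 0.065 for miR-9-3p. In all, 7 miRNAs were past the threshold, a count that went to 4 with library size only (5 higher and 2 lower with TMM, 4 and 0 here), 21 with the DESeq2 Wald test, 4 at a threshold of 0.05, and 3 to 13 without 1 mouse (3 without BTBR replicate 3 or 4, 4 without BTBR replicate 1, 13 without B6 replicate 2). Over all miRNAs same-numbered mice did not deviate together (r −0.14 to 0.04 over 4 pairs). A batch shared by same-numbered mice in some miRNAs only was not tested. With the replicate block, 3 miRNAs passed and the log2 fold changes were 0.02 for miR-124-3p, 0.24 for miR-124-5p, −0.13 for miR-9-5p and −0.005 for miR-9-3p.

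The ratios kept their sign with other pseudocounts. Without 1 mouse they ranged from −0.070 to 0.42 for the arms of miR-124, −0.32 to 0.039 for those of miR-9, −0.38 to 0.020 for miR-9-5p to miR-124-3p and −0.38 to −0.11 for miR-9-3p to miR-124-5p. With 4 against 3 mice the test cannot go below 0.0571, nor below 0.125 with the block.

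With library size only r was 0.19 for miR-124-3p with miR-124-5p, 0.22 with miR-9-5p and 0.40 with miR-9-3p, and −0.12 for miR-124-5p with miR-9-5p. With DESeq2 size factors it was 0.011 for miR-124-3p with miR-9-5p. Without the 2 farthest libraries 3 pairs changed sign, to 0.10 and 0.39 for miR-124-3p with miR-124-5p and miR-9-3p and −0.40 for miR-124-5p with miR-9-5p. Without 1 mouse the ranges were −0.34 to 0.22 (miR-124-3p with miR-124-5p), −0.14 to 0.10 (with miR-9-5p), −0.34 to 0.12 (with miR-9-3p), −0.32 to 0.45 (miR-124-5p with miR-9-5p), 0.21 to 0.63 (with miR-9-3p) and −0.71 to 0.23 (miR-9-5p with miR-9-3p). No correlation passed an adjusted p of 0.05 in any of the 13 alternatives. The causes were not tested. miR-9-3p had 37 reads at the lowest, and the part of depth in its correlations was not tested.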
